A study of Larimichthys crocea with 2 samples.

Results

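The myosin chaperones are the proteins that fold the myosin motor and help to build it into thick filaments. HSP90 is an ATP-driven chaperone, UNC45 holds the myosin motor domain with 1 end and HSP90 with the other, and SMYD1 is a lysine methyltransferase of striated muscle that binds myosin. In zebrafish, muscle that lacks the muscle form of any of these proteins fails to assemble ordered thick filaments. Genes were taken by protein name from the deposited annotation, which gave 7 of 22321 genes: 2 named for HSP90, 3 for UNC45 and 2 for SMYD1. Had more than 10 matched, the set would have been chosen by the highest mean RPKM of both libraries, but that limit was not reached. Values of these libraries were also known when the families were picked, so levels and ratios are a description and carry no test.

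Muscle came from Larimichthys crocea, the large yellow croaker, a sea fish that is farmed for food, and was profiled by RNA sequencing. The control library came from fish that received no treatment, and the fasted library came from fish kept without food for 21 days. The sources used here give no strain, age, number of fish per library or name of the muscle. Each group has a single library, so every difference below compares these libraries and has no replicate check. The control library held 27519918 reads assigned to genes and the fasted library 26593839. Levels are given as RPKM, which are reads scaled to gene length and to library size. The ratio of a gene is log2 of fasted over control RPKM with 0.5 RPKM added to each, which understates changes of low genes. Over the 11417 genes whose mean reached 1 RPKM, the median ratio was 0.48 as deposited (1.40-fold), so ratios are given relative to that shift unless said otherwise. A gene is called higher or lower at 2-fold on that scale.

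Markers of skeletal muscle were abundant in both libraries, with 39 genes that summed to 447933 and 241450 RPKM, control first. They hold fast troponins and fast myosin heavy chains beside parvalbumins, alpha skeletal actin and creatine kinase M-type. Of the 29 with enough signal 18 were lower, 2 higher and 9 within 2-fold, where 16.6% of all genes were lower and 16.1% higher. As deposited 13 were lower and 5 higher, where 8.88% of all genes were lower and 29.7% higher. Markers of other cells and fibres differed between the libraries. All 8 hemoglobin genes with enough signal, of 13, were lower, and the sum of the 13 went from 568 to 44.7 RPKM. For connective tissue 5 of 6 genes were lower (739 to 151 RPKM summed) and for slow and cardiac fibres 16 of 20 (3297 to 488). With a mean of at least 5 RPKM required, 14 slow and cardiac genes were lower and none higher. Of the 7 genes named for adipocyte proteins, adiponectin was listed at 0 in both libraries and the abundant CIDE-3 gene went from 66.1 to 0.203 RPKM, whereas leptin, with 0 and 28 reads, was called higher. Leptin, at 0 and 2.17 RPKM, passed the filter only through the fasted library, so only a higher call was open to it. With a mean of at least 5 RPKM required, no gene of that list was higher and 2 were lower. The list also holds 2 adiponectin receptors. Macrophage genes summed to 4.79 and 7.01 RPKM. The part of these shifts in the values below was not tested, and in whole tissue fewer cells of a type and less RNA per cell cannot be told apart.

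HSP90-beta had the largest ratio of the 7 genes, while the others lay within 2-fold of the shift of all genes. For UNC45A gene9820 that depends on the amount added, with a ratio of -0.92 at 0.5 RPKM and -0.76 at 1 RPKM. The ratio of gene9820 was -1.13 with 0.1 RPKM added and -1.20 on reads centred on their own median. The mean of all 7 reached 1 RPKM, although 1 UNC45A gene passed narrowly at 1.01. HSP90-beta was the only gene called higher, and none was called lower, where 32.7% of all genes were called, 16.1% higher and 16.6% lower. The share of the 7 called higher, 14.3%, was thus near that of all genes. The median ratio of the 7 was -0.21, against 0 for all genes by construction. Without the centring, HSP90-beta was again the only gene past 2-fold, 4 genes had positive and 3 negative ratios, and the median was 0.27, with 29.7% of all genes higher and 8.88% lower.

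**Figure D1:**
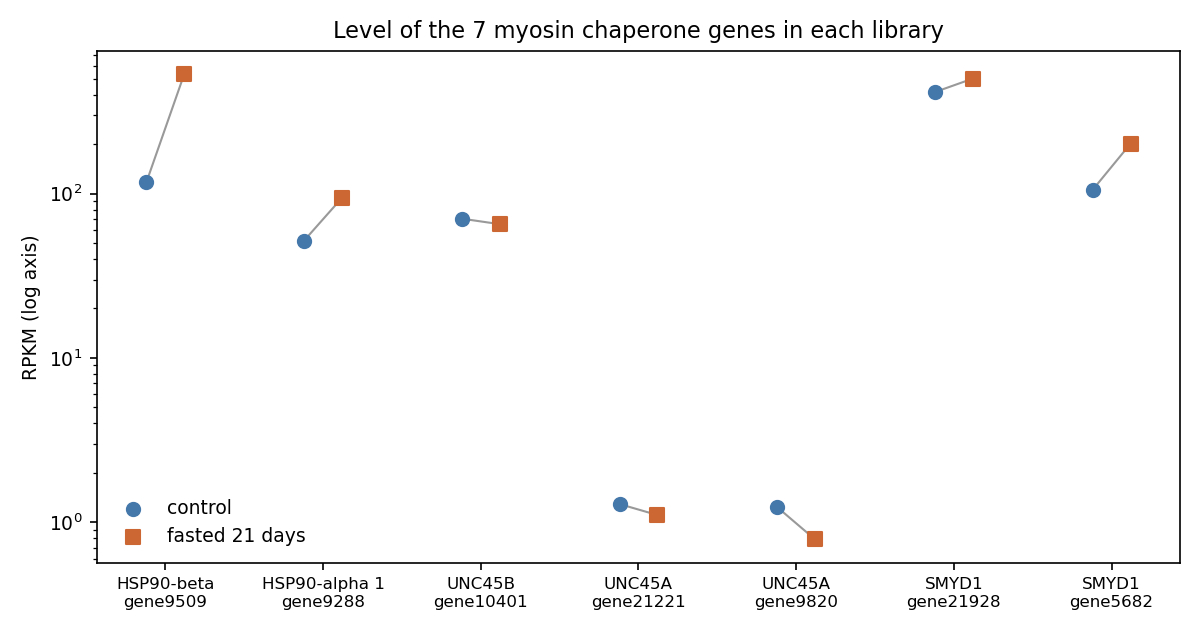
RPKM (log axis) of the 7 myosin chaperone genes in control muscle (circles) and in the library of fish fasted for 21 days (squares), with a line joining the values of each gene. HSP90-beta spans 117 to 535 RPKM, and both UNC45A genes sit near 1 RPKM.

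HSP90-beta is the HSP90 form that most vertebrate cells make constantly, and the event lists and RefSeq both name this gene hsp90ab1. It stood at 117 RPKM in control muscle and 535 in fasted muscle (gene9509, scaffold NW_011322719.1, bases 347932 to 353582, plus strand). Its reads numbered 7075 and 31142. The fasted value was thus the higher by 4.54-fold as deposited and by 3.25-fold after centring (log2 ratio 1.70). Counting error alone put the log2 ratio of reads, less the RPKM shift of 0.48, between 1.67 and 1.74. Centred on the median of reads instead, the ratio was 1.64, below that interval. Its rank among all genes by RPKM moved from 412 to 210, and its ratio lay at the 93.8th percentile of the genes compared. In the authors' deposited table its log2 fold change, not centred, was 2.19.

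The other cytosolic HSP90 gene carries the name HSP 90-alpha 1, after a zebrafish protein made in striated muscle. It stood at 51.8 RPKM in control muscle and 94.3 in fasted muscle (gene9288, scaffold NW_011322704.1, bases 295394 to 305892, minus strand). The centred ratio was 0.38 (counting interval 0.34 to 0.43), and the ratio as deposited was 0.86. By RPKM, which divides by the length of the gene model, both libraries had a lower level of it than of HSP90-beta. The share of HSP90-beta in the reads of the pair, which does not depend on the scaling between libraries, was 52.4% in control muscle (95% Wilson interval 51.6 to 53.3) and 73.4% in fasted muscle (73.0 to 73.8). By RPKM the share was 69.4% and 85.0%.

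The HSP90-alpha gene model is long and spans a place where RefSeq has a pair of tandem genes. Dividing reads by RPKM gave a counted length of 4505 bases for it and 2190 bases for HSP90-beta, a ratio of 2.06. In the newer RefSeq assembly (L_crocea_2.0, used here for names and gene order only), hsp90aa1.2 and hsp90aa1.1 lie side by side between ppp2r5cb and wdr20b, and the scaffold shows the same flanking genes around the single model. The event list gives it separate first exons at its start and 6831 bases further on. The only last exon listed begins 3206 bases after the start, well inside the span of 10499 bases, with 58.2 FPKM (the same kind of scale for assembled fragments) in control muscle and 106 in fasted muscle. An included exon of 110 bases, 1554 bases after the start, had the same values. Both lie on the side next to wdr20b, which is the place of hsp90aa1.1 in RefSeq. In zebrafish hsp90aa1.1 is the form of striated muscle and hsp90aa1.2 is induced by stress. Both first exons were listed at 0, so no level could be given to hsp90aa1.2, and the RPKM divides the reads of the model by its whole length.

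UNC45B, the muscle form of UNC45, stood at 70.4 RPKM in control muscle and 65.2 in fasted muscle (gene10401, scaffold NW_011322771.1, bases 4306 to 11419, minus strand). Its reads numbered 5416 and 4846. The ratio was -0.59 relative to all genes (counting interval -0.65 to -0.54) and -0.11 as deposited (-0.17 to -0.05), negative on both scales. Its rank by RPKM moved from 600 to 1052.

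UNC45A is the form that cells outside muscle use as well, and both of its genes were near the detection filter. The gene with a full-length model (gene9820, unc45a in RefSeq, counted length 2829 bases) had 96 control and 59 fasted reads, or 1.23 and 0.784 RPKM. Its ratio was -0.92, and on reads, with nothing added, it was -1.14 (counting interval -1.63 to -0.65). The other (gene21221, counted length 987 bases, a short model) had 35 and 29 reads, or 1.29 and 1.105 RPKM, with a ratio of -0.64. On reads, less the same RPKM shift, it was -0.70, with a counting interval of -1.47 to 0.05 that narrowly includes 0. Centred on the median of reads the ratio was -0.77, so whether the interval includes 0 depends on the centring. UNC45B held 97.6% of all UNC45 reads in control muscle (95% Wilson interval 97.20 to 98.01) and 98.2% in fasted muscle (97.81 to 98.55). The intervals overlap, which does not show that the shares are alike, and their difference was not tested.

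The SMYD1 genes were both abundant. The more abundant copy stood at 415 RPKM in control muscle and 502 in fasted muscle (gene21928, scaffold NW_011324204.1, bases 52696 to 61687, plus strand). It was the most abundant of the 7 genes in control muscle, at rank 179, and second to HSP90-beta in fasted muscle, at rank 219. Its ratio was -0.21 (counting interval -0.24 to -0.18) relative to all genes but 0.27 as deposited, so its direction depends on the scaling. The control event list calls it smyd1, whereas the fasted list gives no symbol there. In RefSeq 4 of its 5 nearest named neighbours flank smyd1a.

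The second SMYD1 gene stood at 106 RPKM in control muscle and 201 in fasted muscle (gene5682, scaffold NW_011322562.1, bases 4090 to 9773, plus strand). RefSeq names its gene ID smyd1b, the copy that zebrafish needs for thick filament assembly. Its reads numbered 4270 and 7876, and its ratio was 0.45 (counting interval 0.40 to 0.50), or 0.93 as deposited. The share of gene21928 in SMYD1 reads was 79.0% in control muscle (95% Wilson interval 78.4 to 79.5) and 70.4% in fasted muscle (69.8 to 70.9). Reads of similar stretches could have been assigned to either copy.

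**Figure D2:**
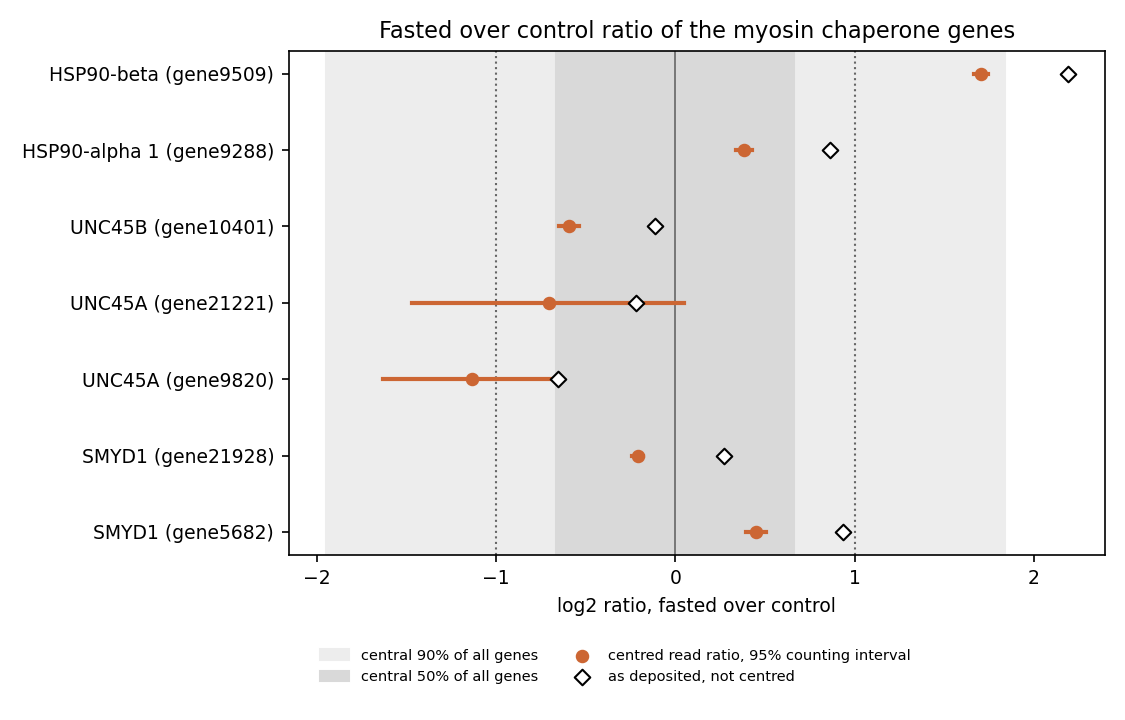
Log2 ratio of fasted over control reads for each gene, less the median RPKM ratio of all genes (filled circles, bars are 95% counting intervals) and as deposited (open diamonds). Grey bands show the 5th to 95th and 25th to 75th percentiles of the centred RPKM ratios of all genes and dotted lines mark 2-fold; HSP90-beta lies above the line on both scales and UNC45A gene9820, at -1.14 without a pseudocount, below it on the centred scale.

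The order of the levels in control muscle was SMYD1 gene21928, HSP90-beta, smyd1b, UNC45B, HSP90-alpha, then both UNC45A genes. In the fasted library HSP90-beta and SMYD1 gene21928 were within 1.07-fold of each other and HSP90-alpha was above UNC45B. The place of HSP90-alpha rests on the whole length of its model, and over a shorter length its level would be higher. In the control event list its last exon, at 58.2 FPKM, was above that of HSP90-beta, at 52.3. In the fasted list it was below, at 106 against 276. Without replicates no spread between fish is known, so neighbours in either order cannot be separated beyond counting error. Summed by family, HSP90 went from 169 to 629 RPKM, SMYD1 from 521 to 703 and UNC45 from 72.9 to 67.1. The centred log2 ratios of these sums were 1.41, -0.05 and -0.60, and the SMYD1 sum had a ratio of 0.43 as deposited.

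Sarcomeric myosin heavy chains are the client of these proteins, and their genes split. Of 28 genes so named 21 had enough signal, with 13 lower, 1 higher and a median of -1.32, or 10 lower and 4 higher as deposited. Of all genes 16.6% were lower and 16.1% higher, or 8.88% and 29.7% as deposited. The lower genes include a Myosin-7 model, named because of its values, at 2.06 and 0.774 RPKM (gene23741). It was under 1 RPKM in fasted muscle and passed the filter only through the control library. With a mean of at least 5 RPKM required, 11 genes were lower and 1 higher. The lower genes include fast chains and also Myosin-6 and Myosin-7 chains, which were counted above among slow and cardiac fibres. Some short models are named as fragments, so the entries may not all be separate genes. The 4 most abundant, all fast skeletal chains, had ratios of 0.42 to 0.81 and held 87.4% of the RPKM of the list in control muscle and 93.2% in fasted muscle. The sum of the list was therefore larger in fasted muscle, at 66492 RPKM against 31448. Reads of near-identical myosin copies could have been split between them. Some of the models are short, such as gene23811 (bases 144 to 939 of its scaffold), which had the highest RPKM, at 13876 and 34088. Where pieces of a gene are listed separately, summing their RPKM counts that gene more than once. The sum and the values per 1000 RPKM carry that limit. Per 1000 RPKM of myosin heavy chain, a measure free of the scaling between libraries, HSP90-beta went from 3.73 to 8.04 RPKM. UNC45B went from 2.24 to 0.980 on the same measure, and SMYD1 gene21928 from 13.2 to 7.54. HSP90-alpha (1.65 and 1.42) and smyd1b (3.36 and 3.03) were closer between the libraries.

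Proteins built into the thick filament beside myosin had mostly lower values, with 9 of 14 genes lower, 1 higher and a median of -1.04, and 5 lower and 1 higher as deposited. The centred counts are 64.3% lower and 7.14% higher, beside 16.6% and 16.1% of all genes. As deposited 8.88% of all genes were lower and 29.7% higher. The lower genes include myomesin-3, named because of its values, at 2.54 and 0.548 RPKM (gene9308). It was under 1 RPKM in fasted muscle and passed the filter only through the control library. With a mean of at least 5 RPKM required, 7 genes were lower and 1 higher. Myosin-binding protein C of fast type, which ties myosin to actin, stood at 1077 and 144 RPKM (gene5590, -3.38). The M-line protein myomesin-2 had 651 and 110 RPKM in 1 copy (gene16836, -3.04) and 607 and 372 in the other (gene1204, -1.19). The abundant myosin-binding protein H gene had a ratio of -1.06 (gene3452) and a minor one 2.26 (gene1593). The 4 titin genes above 10 RPKM, chosen after their values were seen, were within 2-fold, and the fifth, at 1.79 and 1.09 RPKM (gene1594), had a ratio of -1.01.

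HSP90 works in a cycle that co-chaperones load, time and release, and several of their genes had higher values. Of 21 genes on that list 19 had enough signal, of which 6 were higher and 2 lower, with a median of 0.76 against 0 for all genes. That is 31.6% higher and 10.5% lower, beside 16.1% and 16.6% of all genes. As deposited 12 were higher and none lower, where 29.7% of all genes were higher and 8.88% lower. SUGT1, which links HSP90 to clients with leucine-rich repeats, had the largest ratio, at 19.9 and 174 RPKM (gene19649, annotated as suppressor of G2 allele of SKP1, 2.61). CHORDC1, its partner, had 35.1 and 184 RPKM in the more abundant copy (gene20314, 1.89), while the minor copy had a ratio of -0.76 (gene8468).

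The other 4 genes past 2-fold higher are named because of their values. Stress-induced-phosphoprotein 1, which passes clients from HSP70 to HSP90, stood at 23.4 and 104 RPKM (gene10832, 1.65). NudC stood at 15.8 and 71.6 RPKM (gene10586, 1.66), Cdc37, which brings kinases to HSP90, at 12.02 and 42.5 (gene3716, 1.30), and protein phosphatase 5 at 13.1 and 41.6 (gene18260, 1.15). The ATPase activator AHSA1 had 70.8 and 99.6 RPKM in the more abundant copy, a ratio of 0.01 (gene18414), and DnaJ homolog subfamily C member 7 had a ratio of 0.88 (gene15171). The genes called lower were the immunophilin FKBP5, at 27.6 and 18.2 RPKM (gene15481, -1.07), and AH receptor-interacting protein, also named because of its value, at 15.96 and 10.5 (gene20479, -1.06). The related FKBP4, which was not called, had a ratio of 0.88 (gene3189), so these immunophilins stood on opposite sides of the median.

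Of 2 genes for HSP90 proteins of other compartments 1 was called higher, where 16.1% of all genes were higher. As deposited both were higher, where 29.7% of all genes were. The mitochondrial form, annotated as heat shock protein 75 kDa, stood at 7.90 and 44.9 RPKM (gene10238, 1.95). Endoplasmin, the form of the endoplasmic reticulum, stood at 13.6 and 34.6 RPKM (gene2696, 0.83), past 2-fold as deposited only. Among 5 genes for other SMYD methyltransferases 3 were higher and 1 lower, where 16.1% of all genes were higher and 16.6% lower. The higher include SMYD4, at 0.623 and 4.77 RPKM (gene13733), and SMYD3, named because of its values, at 0.411 and 2.94 (gene2306). Both were under 1 RPKM in control muscle and passed the filter only through the fasted library. With a mean of at least 5 RPKM required, 1 gene was higher and 1 lower. SMYD5 stood at 5.30 and 46.0 RPKM (gene12295, 2.52). The SMYD2 copies, which methylate HSP90 and other proteins in mammals, differed, with SMYD2-B at 67.1 and 160 RPKM (gene6770, 0.77) and SMYD2-A at 28.7 and 8.97 (gene5082, -2.11).

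Heat shock factors, which switch on heat shock genes, gave no call among the 3 genes with enough signal, of 5 so named. The larger HSF1 gene stood at 15.5 and 32.4 RPKM (gene16006, 0.56, and 1.04 as deposited), and HSF2 had a ratio of -0.20 (gene22298). HSP70 and small heat shock proteins went both ways, with 6 of 16 higher, 5 lower and a median of 0.06. That is 37.5% higher and 31.25% lower, beside 16.1% and 16.6% of all genes. The lower genes include heat shock 70 kDa protein 12B, named because of its values, at 3.04 and 0.929 RPKM (gene326). It was under 1 RPKM in fasted muscle and passed the filter only through the control library. The most abundant heat shock cognate 71 kDa gene stood at 899 and 5403 RPKM (gene16451, 2.10) and heat shock protein beta-8 at 116 and 617 (gene5533, 1.93), whereas heat shock protein beta-7 stood at 42.4 and 16.8 (gene11579, -1.79). Other abundant genes were close to the median of all genes. Heat shock protein beta-1 stood at 245 and 286 RPKM (gene13098, -0.26) and another heat shock cognate 71 kDa gene at 113 and 162 (gene19028, 0.04). All 9 genes for TRiC subunits, the chaperonin that folds actin and tubulin, were higher on both scales, with a median of 2.13. Of all genes 16.1% were higher, or 29.7% as deposited. The 9 include gene16940 and gene16941, adjacent models that are both annotated as subunit theta and may be parts of the same gene. The shorter, gene16940, had 0 control and 100 fasted reads and passed the filter only through the fasted library.

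**Figure D3:**
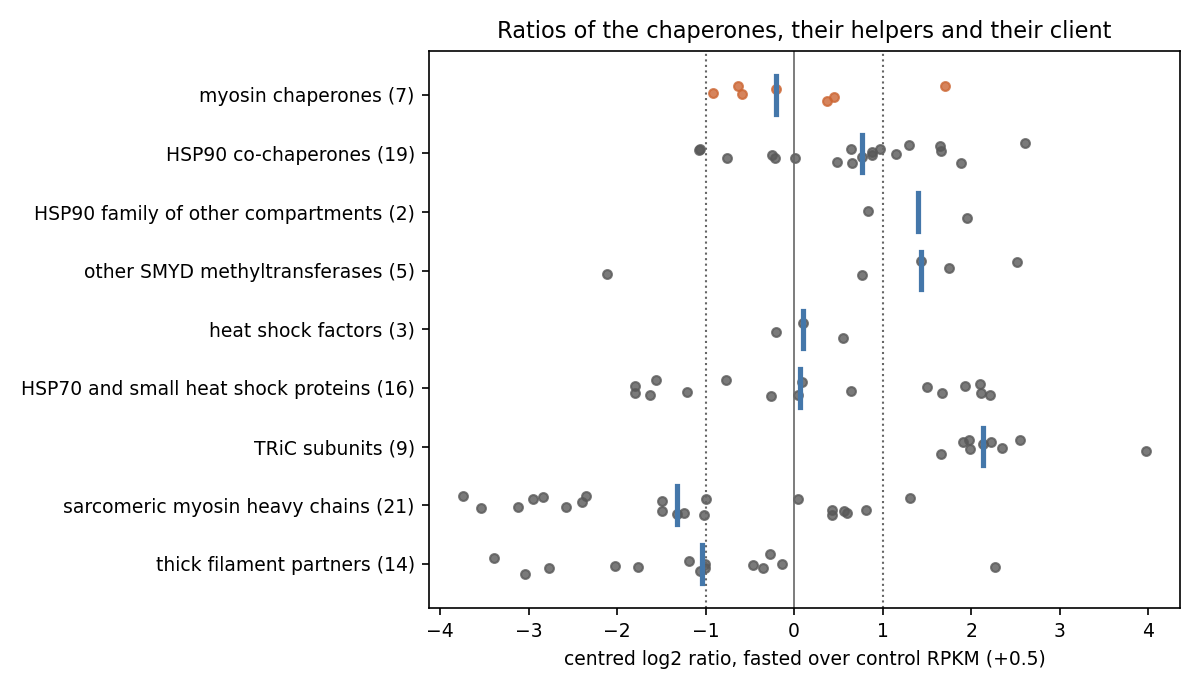
Centred log2 ratio of fasted over control RPKM for each gene whose mean reached 1 RPKM (points, spread vertically at random), by list, with the number of genes in brackets; vertical bars are list medians and dotted lines mark 2-fold. The co-chaperone median is 0.76, the TRiC median 2.13 and the myosin heavy chain median -1.32, with the most abundant chains to the right of 0.

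By level in both libraries, measured as distance on the log2 scale over these 2 libraries alone, the named genes nearest to HSP90-beta were BTG1 (gene3814, 113 and 518 RPKM), proteasome maturation protein (gene3239, 110 and 472) and TRIM55 (gene20690, 133 and 501). Nearest to UNC45B were muscleblind-like protein 1 (gene12047, 69.9 and 63.4 RPKM), nebulin-related-anchoring protein (gene12264, 67.5 and 67.0) and beta-sarcoglycan (gene4113, 64.0 and 66.5). Nearest to SMYD1 gene21928 were SH3BGR, annotated as SH3 domain-binding glutamic acid-rich protein (gene6006, 360 and 516), HMGB1 (gene23581, 454 and 572) and USMG5, annotated as up-regulated during skeletal muscle growth protein 5 (gene6434, 409 and 414). With 2 libraries such nearness says only that the levels were alike.

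The deposited splicing events, a readout the choice of genes did not use, gave transcript forms for all 7 genes, with 24 events in the list of the control library and 27 in that of the fasted library. Each event carries an FPKM but no read count, so no interval can be given, and a value of 0 may be a failed estimate. Exons are placed by their distance in bases from the annotated start of the gene, with negative positions before it.

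HSP90-beta differed in the first exons listed. The exon at the annotated start had 41.2 FPKM in control muscle and was listed at 0 in fasted muscle. An alternative first exon that ends 2305 bases downstream had 11.1 FPKM in control muscle and 87.8 in fasted muscle. The last 27 bases of that stretch were also listed as an internal exon, which follows another exon, and in that form had 41.2 FPKM in control and 188 in fasted muscle, with the skipped form listed at 0. The common last exon had 52.3 and 276 FPKM. Most of the fasted FPKM therefore lay on transcripts with an exon before the alternative first exon, although no first exon with that signal was listed, and the 0 at the annotated start is no measure of its use. In the fasted list an exon of 30 bases (NW_011322719.1, bases 352626 to 352655) was included at 189 FPKM and skipped at 86.6, which is 31.4% skipped. That event was not in the control list.

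UNC45B and SMYD1 gene21928 also differed in the listed ends. For UNC45B the control list put all 56.4 FPKM on a first exon that ends at position -294. The fasted list divided it into 21.6 FPKM there and 26.5 at the annotated start. For SMYD1 gene21928 the control list gave 204 FPKM to a last exon that begins 2632 bases after the start and 211 to the last exon at 8899 bases. The fasted list had only the latter, at 291 FPKM, and its first exon, at 214 FPKM, ended at position -954. That first exon was not in the control list, whose own first exon had 415 FPKM. The fasted exons belong to an assembled gene without a symbol, matched to gene21928 by overlap. Summed last-exon FPKM of gene21928 was 0.999 of its RPKM in control muscle and 0.580 in fasted muscle. That sum was lower in the fasted list, whereas RPKM as deposited was higher, so the listed ends do not show a change in transcript forms.

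In smyd1b an exon of 39 bases (NW_011322562.1, bases 6839 to 6877) was listed at 0 when included and at 59.1 FPKM in control muscle and 106 in fasted muscle when skipped. SMYD1 transcripts with and without a short exon are known from mouse and zebrafish. The FPKM listed for smyd1b was 0.560 of its RPKM in control and 0.525 in fasted muscle, so the event lists do not show how much of the gene lacks the exon. The low UNC45A gene9820 had a single first and last exon in each list, at 0.998 and 0.568 FPKM. UNC45A gene21221 had 1 retained intron event in the fasted list alone, at 0.256 FPKM retained and 0.380 spliced, too low to compare.

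**Figure D4:**
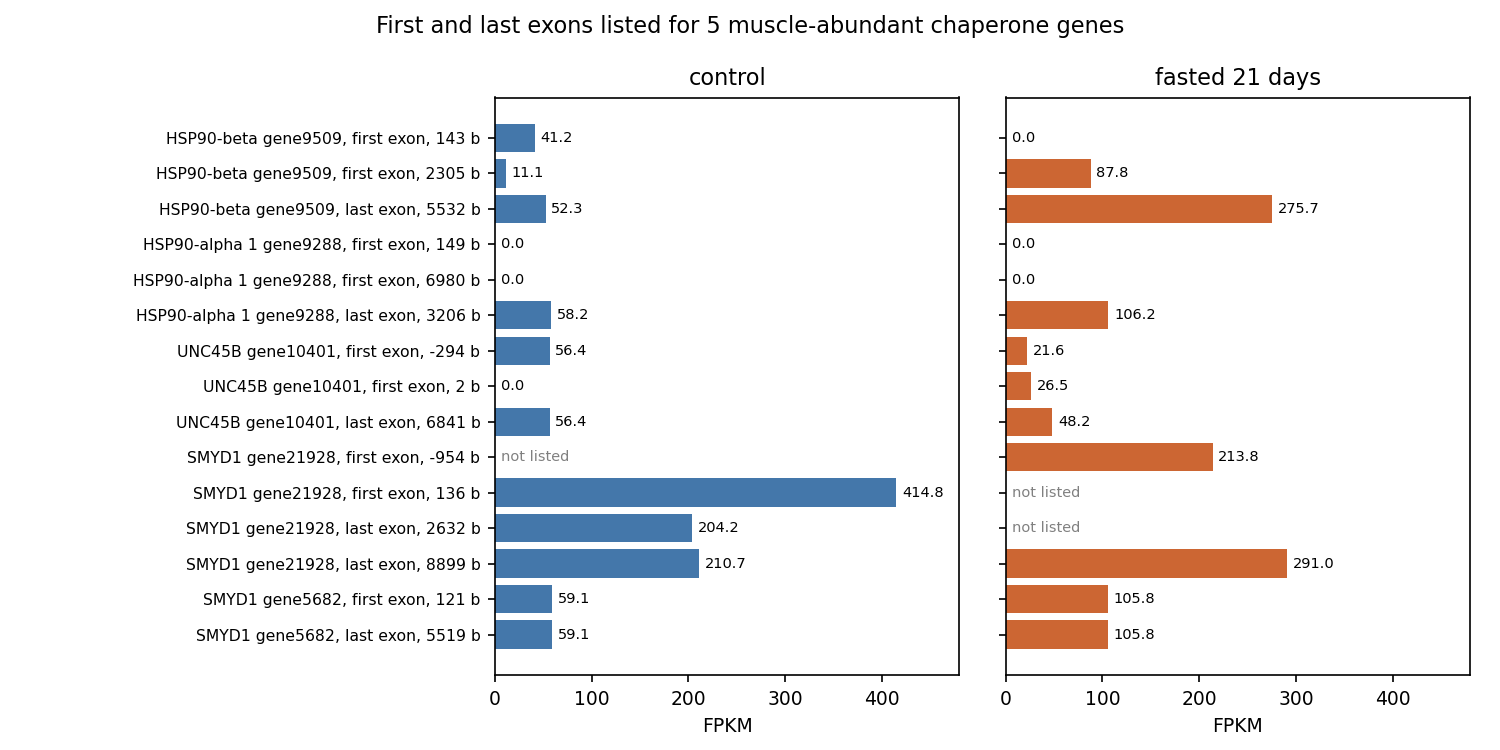
FPKM of each first and last exon listed for 5 genes in the control (left) and fasted (right) library; b is the distance in bases from the annotated gene start to the inner edge of the exon, and "not listed" means no such event in that list. The HSP90-beta last exon has 52.3 FPKM in control muscle and 276 in fasted muscle, and its first exon at the annotated start is listed at 41.2 and 0, although an internal exon further on has 41.2 and 188 FPKM.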

How the data were processed

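Per the labels' protocols, libraries were TruSeq from Trizol RNA. HTSeq, SAMtools 0.1.19, TopHat and TopHat2 2.0.12 are named without roles, per the submitters' processing notes. The sources used here give no genome build, annotation release or use of strand in counting, so overlapping genes on opposite strands cannot be told apart. The authors deposited RPKM per gene with protein names, a table with RPM, a fold (ratio) and a log2 fold change, and splicing events with FPKM per library, per the file headers.

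The deposited RPM move in equal steps within a library, each worth 1 read, and reads were recovered from them. Within 0.1 read, 100% of 16725 control and 16599 fasted values above zero came out whole. A count test needs replicates, so none was run. Counting intervals are 95% exact Clopper-Pearson intervals given the sum of both libraries, and shares have Wilson intervals. Neither kind holds more than counting error, since reads here cannot be traced to separate molecules. Centred read ratios and their intervals were moved by the RPKM shift of 0.48, not by a median of reads. Centred on the median of reads, HSP90-beta, HSP90-alpha, UNC45B and both SMYD1 genes had ratios below these intervals, such as -0.66 for UNC45B. Event lists were matched to libraries by the title in their names. Summed last-exon FPKM correlated more with RPKM of the library of the same title (Spearman 0.93 in each case) than with the other (0.87), across 20679 and 20638 genes, which are not independent replicates. Genes and lists were chosen with earlier results of these data known. Beside the 7 genes, those named come from the 4 most abundant members of each list, its extreme ratios at 5 RPKM or more and the 3 nearest genes, unless said otherwise; not every gene so picked is written out. The code for the ratio, calls and intervals was run on counts simulated from the control library, with known folds planted in some genes. Those counts held counting error only and no spread between fish, so the run checks the code and not the calls made here. Python 3.11.15, numpy 2.4.6, pandas 2.3.3, scipy 1.17.1 and matplotlib 3.10.9 were used. The planned search for promoter motifs was not run, as no sequence was used here.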

Additional observations from a re-analysis of the deposited data

How the results depend on the processing

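HSP90-beta was the only gene called higher under all 9 alternatives, which changed the pseudocount, the filter, the scaling, the unit or the size threshold; its log2 ratio ranged from 1.44 to 2.18. No gene was called lower except 1 with a pseudocount of 0.1 RPKM, 1 with reads in place of RPKM and 3 at 1.5-fold. The 25th and 75th percentiles of the ratios of all genes were -0.67 and 0.66, past 1.5-fold in both directions. At least 25% of all genes thus passed that threshold on each side. Exact shares of all genes are not given for these 3 settings. The median over the 7 genes was -0.27 with a pseudocount of 0.1 RPKM, -0.16 with 1 RPKM and -0.28 with reads. It was -0.37 when scaled without the 20 most abundant genes of either library, 26 in all. That scale was not centred, and the median of all genes on it was -0.075. The median of the 7 turned positive with no filter (0.26), at a mean RPKM of at least 5 (0.12, over fewer genes) and as deposited (0.27). With no filter the centring used all 22321 genes and left values close to those deposited, so these settings are not separate checks. SMYD1 gene21928 changed sign with no filter (0.26) and as deposited (0.27), and no other member did under any alternative. Sizes did move. At a mean of at least 5 RPKM the ratios were 0.12 for HSP90-alpha, 0.19 for smyd1b, -0.85 for UNC45B and -0.47 for SMYD1 gene21928. The HSP90 sum had a ratio of 1.22 with reads, where the long alpha model weighs more. Co-chaperones called higher numbered 12 with no filter, as deposited and at 1.5-fold. As deposited 29.7% of all genes were higher, and at 1.5-fold at least 25% were. Of 51 events, 29 had at least 1 FPKM. No paired analysis was possible because each group has 1 library. Depth limits UNC45A, with under 100 reads per library and gene, and not the other 5 genes. The motif window alternative was not run.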
